A study of Mus musculus with 7 samples.

Results

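The genes described here encode the cytoplasmic translation initiation factors (eIF) and translation elongation factors (eEF) of the mouse, with their kinases, binding proteins and methyltransferases. They were chosen by name: every protein-coding gene whose symbol in GENCODE M21 starts with Eif or Eef followed by a digit, with a summed raw count of at least 50 over the 7 libraries. This gave 66 of the 39017 gene IDs in the count table, of which 37693 have a symbol in that annotation. The choice used the name and the summed count but not the difference between groups. Just inside the count limit lay Eef1akmt3 with a summed count of 78 and Eif4ebp1 with 243, and just outside it lay Eif4e1b with 11. All 66 passed the filter on low counts, and 55 of them had a mean of at least 10 CPM (counts scaled by library size) in both groups.

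The libraries came from mouse hippocampus by translating ribosome affinity purification (TRAP), which pulls down ribosomes that carry a tagged protein together with the mRNA on them. The mice carried a GAD2 Cre, which acts in cells that have used the Gad2 gene, and an L10-EGFP transgene, a tagged protein of the large ribosomal subunit; the labels give no strain, age or sex, and their treatment field names only the fraction, bound or unbound. There were 3 bound libraries (titles GAD_ctrl) and 4 unbound libraries, 2 with titles starting UBS and 2 with titles starting UBGS, prefixes that the labels do not explain. For each TRAP sample 2 hippocampi were pooled, and nothing says which libraries share tissue, animals or a batch, so every p-value rests on the spread from library to library, which may be technical. Both groups carry the same alleles, and unbound RNA is what the pull-down left behind, a mixture of all cell types that can still hold RNA of the Gad2 cells. In such bulk samples a gene's level in a fraction cannot tell apart fewer cells of a type, less RNA per cell and less of that RNA on tagged ribosomes.

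Library totals ran from 38690380 to 51953811 counts. Mitochondria-encoded genes took 28.5 to 32.9% of the unbound and 0.0867 to 0.123% of the bound counts, so the scaling between groups matters: TMM (trimmed mean of M-values) factors ran from 0.8414 to 0.9103 in unbound and from 1.14 to 1.222 in bound libraries. All CPM below use TMM-scaled library sizes, and a difference is the log2 of bound over unbound. Scaling by library totals moved the median difference of all genes from -0.01 to 0.43, and directions below are relative to the TMM scale. On totals 43 factor genes were called higher and 3 lower, beside 47.5% and 18.9% of all genes. A second alternative that moved many calls was an offset for the trend of level with exon length in each library, called the length offset below. Markers bore out the pull-down of GABAergic RNA: 10 of 10 markers were higher in bound libraries, with a summed level of 5624 to 7334 CPM against 553.6 to 697 CPM. None of the markers of excitatory neurons was higher and 10 of 10 were lower (1215 to 1494 against 5884 to 7760 CPM), and 9 of 10 astrocyte, 10 of 10 oligodendrocyte, 8 of 10 endothelial and mural and 10 of 10 choroid plexus and meninges markers were lower. Microglia markers went the other way, with 17 of 18 higher in bound libraries, at 397.4, 942.7 and 339.7 CPM summed in bound replicates 1, 2 and 3 against 106.3 to 169.8 CPM unbound; bound replicate 2 was the highest of the 3 for 18 of 18. Their part in the results on the factor genes was not tested. Of the 31 factor genes called below, 26 kept the call and its direction without bound replicate 2, and 26 without bound replicate 1. Bound replicates 1 and 3 also lay above the unbound range in the summed microglia markers, so leaving out replicate 2 does not remove that signal.

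Protein synthesis in the cytoplasm starts when eIF2 and GTP bring the initiator tRNA to the small ribosomal subunit. eIF1 and eIF1A, with eIF3, hold that subunit open for scanning, while the eIF4 proteins prepare the capped mRNA. eIF5B then joins the large subunit. In elongation, eEF1A carries each aminoacyl-tRNA to the ribosome, the eEF1B complex reloads eEF1A with GTP, and eEF2 moves the ribosome along. Neurons use these steps as control points: phosphorylated eIF2 lowers initiation and eEF2 kinase slows elongation. Neurons and muscle also switch from eEF1A1 to its close relative eEF1A2 as they mature. Many mRNAs of this machinery start with a run of pyrimidines, through which mTORC1 controls their own translation.

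Most factor genes lay close to equal in the 2 fractions. Of the 66, 31 passed edgeR's quasi-likelihood test at an adjusted p of 0.05, with 17 higher and 14 lower in bound libraries. Over all 19563 genes tested, 61.7% passed it, 31.0% higher and 30.7% lower (63.9% of protein-coding genes), beside 47.0% of the factor genes, a description with no test. The sizes were also small: 51 of 66 (77.3%) differed by less than 1.5-fold, against 42.9% of all genes, and 3 of 66 (4.55%) by 2-fold or more, against 36.4%. The median difference was 0.04, with a middle range of -0.26 to 0.28, beside -0.01 and -0.77 to 0.65 over all genes. The libraries of the 2 groups did not overlap for 30 factor genes, 15 higher and 15 lower, beside 63.3% of all genes and 64.5% of protein-coding genes. The order of levels per kilobase of exon was also much the same in both fractions (Spearman's rho 0.966 across 66 genes within the same libraries; genes are not independent replicates).

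**Figure D1:**
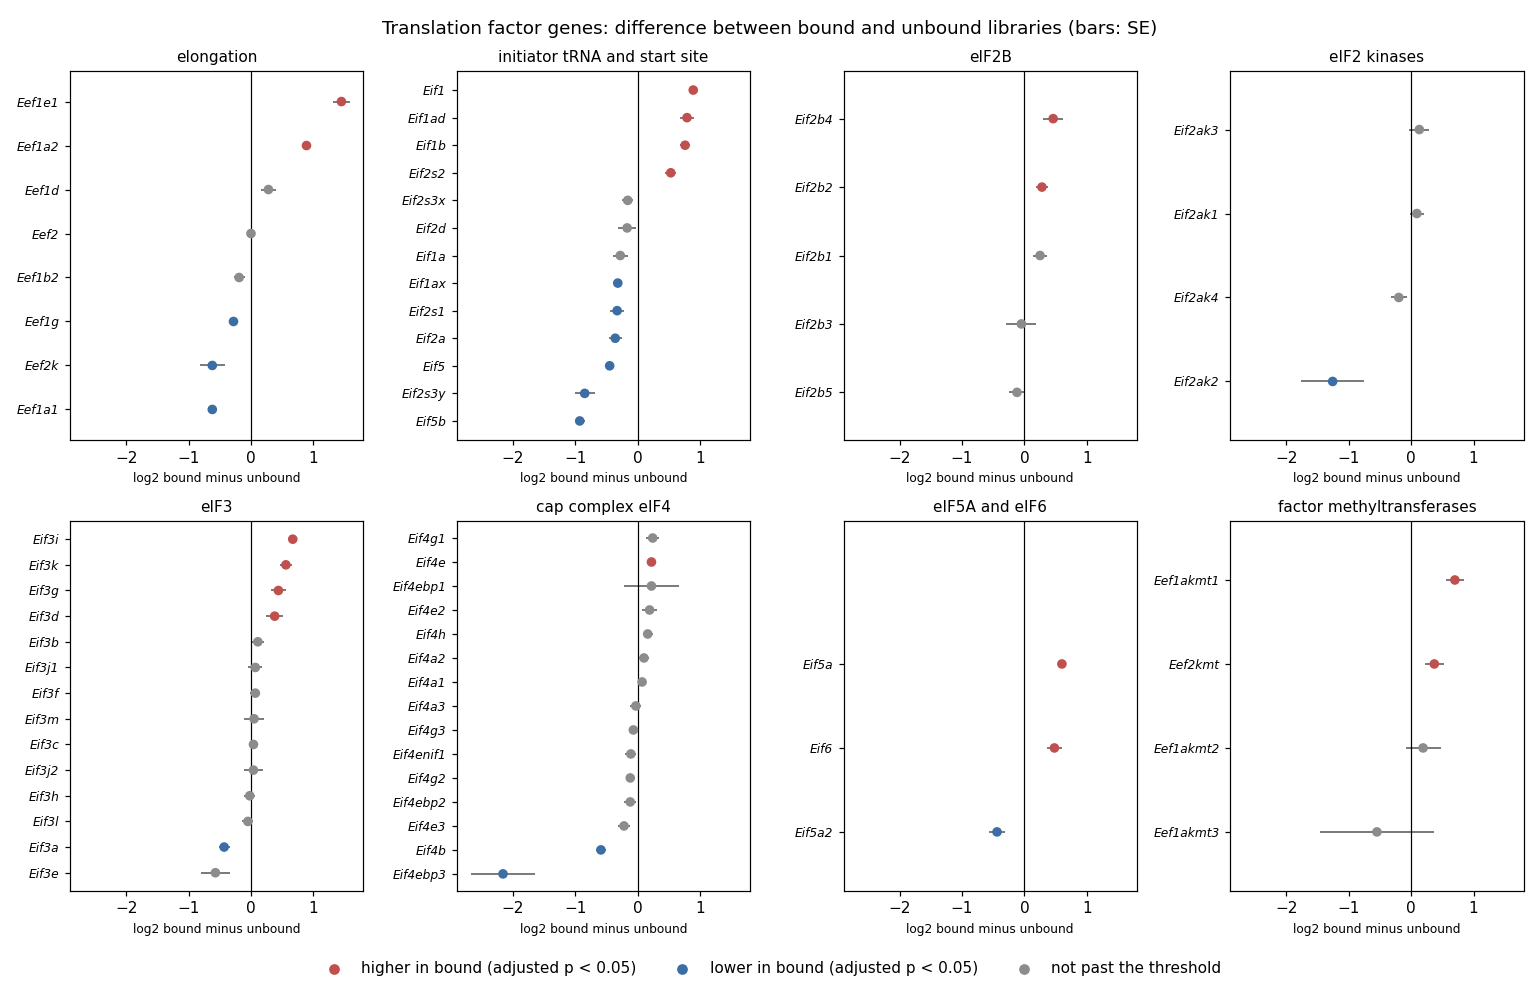
Difference between bound and unbound libraries (log2, x axis) of the 66 factor genes, 1 panel per role and 1 gene per line; points are the edgeR estimates, bars their SE, and colours mark genes higher, lower or not past the adjusted p of 0.05. Most points lie near 0; Eef1e1 at 1.45 and Eif4ebp3 at -2.16 are the extremes.

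The elongation factors held the largest exchange between related genes. The group of 8 genes includes Eef1e1 and the kinase gene Eef2k, which are not elongation factors themselves. Of the 8, 2 were higher and 3 lower, with a median of -0.09, beside 31.0% and 30.7% of all genes. Eef1e1 was among the higher genes and Eef2k among the lower. Eef1a1, the broadly used form of eEF1A, was among the most abundant of all the factor mRNAs; its gene lies on chromosome 9 (78478449 to 78489151, minus strand, GRCm38). It stood at 560.3, 514.3, 520.0 and 523.2 CPM in the 4 unbound libraries and at 355.9, 347.1 and 327.6 CPM in the 3 bound libraries. Every bound library lay below every unbound one. The difference was -0.62 ± 0.06 (SE, edgeR adjusted p = 9.3e-06), or 1.54-fold lower. Eef1a2, the form of mature neurons and muscle, lies on chromosome 2 (181147653 to 181157014, minus strand) and went the other way. It stood at 76.2, 80.6, 85.9 and 81.1 CPM unbound and at 148.6, 140.0 and 162.9 CPM bound, again without overlap. The difference was 0.89 ± 0.07 (SE, edgeR adjusted p = 1.6e-06), or 1.86-fold higher.

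The start regions of the genes with the largest opposite or shared moves are shown here because the paralogs, whose coding parts are alike, differ there. Each runs from 70 bases before to 30 bases from the annotated start (RefSeq, GRCm38.p6), 5′ to 3′ on the gene's strand, with capitals for the sequence TATATAA or TATAAAA. The windows are chr9:78481695-78481794 (minus) for Eef1a1, chr2:181156986-181157085 (minus) for Eef1a2, chr11:100319879-100319978 (plus) for Eif1 and chr9:120492536-120492635 (plus) for Eif1b.
Eef1a1: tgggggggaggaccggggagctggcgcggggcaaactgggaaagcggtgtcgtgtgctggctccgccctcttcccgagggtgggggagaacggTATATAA
Eef1a2: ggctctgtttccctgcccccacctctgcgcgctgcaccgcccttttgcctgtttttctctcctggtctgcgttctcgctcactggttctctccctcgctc
Eif1: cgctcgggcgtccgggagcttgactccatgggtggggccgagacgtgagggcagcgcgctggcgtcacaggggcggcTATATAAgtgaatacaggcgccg
Eif1b: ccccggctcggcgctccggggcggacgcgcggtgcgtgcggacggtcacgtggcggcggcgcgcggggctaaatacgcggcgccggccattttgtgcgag
Eef1a1 and Eif1 hold TATATAA on the gene's strand, and these windows of Eef1a2 and Eif1b hold neither sequence. In both the match lies after the annotated start, at bases 24 and 8 counted from it. Searched on both strands of all 32851 RefSeq windows of 300 bases, either sequence occurred in 7.98%, and in 4 of 66 windows (6.06%) of the 51 factor genes with an entry. Eef1a1 was lower and Eif1 higher in bound libraries, so the 2 genes that hold the sequence here differed in direction.

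Set against each other within each library, which does not depend on the scaling between libraries, Eef1a2 made up 14, 15.8, 16.5 and 15.6% of the summed per-kilobase level of the eEF1A pair in the unbound libraries. In the bound libraries it made up 33.3, 32.6 and 37.3%. The means were 34.4% ± 2.55 (SD, n = 3) and 15.5% ± 1.06 (SD, n = 4). The log2 ratio of Eef1a2 to Eef1a1 differed by 1.52, or 2.86-fold, the largest shift among 10 pairs of paralogs. An exact two-sided permutation test gave p = 0.0571 (adjusted over the 10 pairs, 0.0952), which is the smallest p that 35 arrangements of 3 against 4 libraries allow. Even so, Eef1a1 remained the more abundant of the pair in each of the 7 libraries.

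Eef1a1 shares 40.4% of its 50-base exon words with 21 other genes, while Eef1a2 shares none, and the handling of reads with several matches is not given in the sources used here. Counted as copies were annotated pseudogenes of the count table with at least 100 such words in common with the gene. The 4 copies of Eef1a1 held 68.2 ± 3.77 CPM (SD, n = 3) bound and 107.7 ± 5.15 CPM (SD, n = 4) unbound, lower in the same libraries as the gene. The other genes that share words were not added. With these copies added, Eef1a1 came to 411.8 ± 18.1 CPM bound and 637.2 ± 25 CPM unbound, and the groups still did not overlap.

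**Figure D2:**
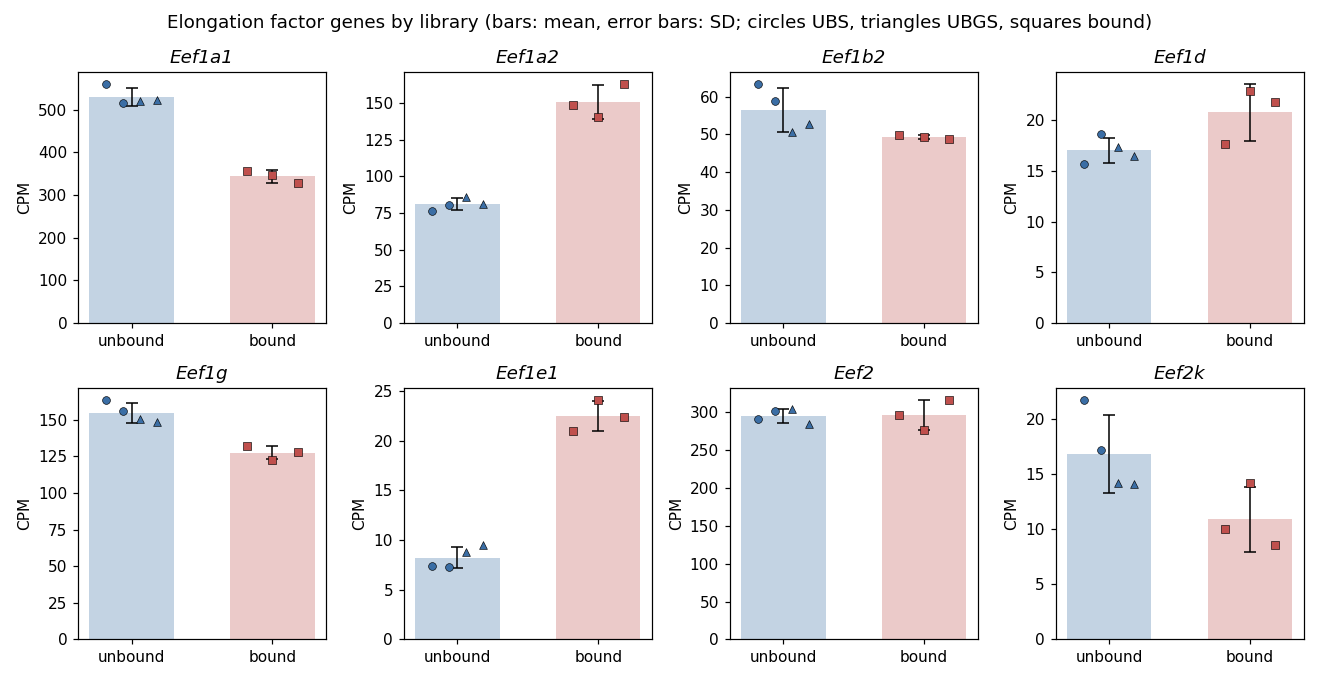
Level (CPM, linear axis from 0, own scale per gene) of the 8 elongation genes in each library; bars are group means, error bars SD, circles UBS, triangles UBGS and squares bound libraries. Eef1a1 lies above 514 CPM unbound and below 356 CPM bound, Eef1a2 at 140 CPM or more in bound libraries, and Eef2 overlaps between the groups.

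The eEF1B complex, which recharges eEF1A, did not move as one. Eef1g, its gamma subunit, stood at 148.6 to 163.5 CPM unbound and 122.7 to 132.1 CPM bound, a difference of -0.28 ± 0.07 (SE, edgeR adjusted p = 0.0034). Eef1g also shares 44.2% of its 50-base words with other genes, and on library totals its difference was 0.16 (adjusted p = 0.066). For Eef1b2 and Eef1d, which encode exchange-factor subunits, the differences were -0.19 (adjusted p = 0.086) and 0.28 (adjusted p = 0.057). Eef1b2 passed with DESeq2 (-0.22, adjusted p = 0.049), with the UBS libraries alone (-0.31, adjusted p = 0.032) and with the length offset (-0.39, adjusted p = 0.0047), and was called higher on library totals (0.24, adjusted p = 0.037). Eef1d passed with the length offset (0.54, adjusted p = 0.0025), on library totals (0.72), without the mitochondria-encoded genes and Gm42418 (0.30), and without bound replicate 1 (0.40) or unbound replicate 2 (0.34). Eef1e1 encodes a small protein of the multi-tRNA-synthetase complex that is named after eEF1 for its sequence. It had the largest positive difference of all 66 genes, from 7.40, 7.27, 8.81 and 9.48 CPM unbound to 21, 24.1 and 22.4 CPM bound. The libraries were far apart, with a difference of 1.45 ± 0.13 (SE, edgeR adjusted p = 2.6e-06), or 2.73-fold.

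The translocase and its kinase made the rest of the group. Eef2 stood at 284.1 to 304.1 CPM unbound and 276.7 to 315.8 CPM bound; its difference was 0.00 ± 0.07 (edgeR adjusted p = 0.96). Eef2k, the calcium- and calmodulin-dependent kinase that inhibits eEF2, was at 21.7, 17.2, 14.2 and 14.1 CPM unbound and at 10, 14.2 and 8.53 CPM bound. The groups overlapped by bound replicate 2, and the difference of -0.62 ± 0.20 (SE, adjusted p = 0.021) lost its call without bound replicate 1 or 3, without unbound replicate 1 or 2, with the UBGS libraries alone, with the length offset and on library totals.

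Among the 13 genes for the initiator tRNA and start site, 4 were higher and 6 lower (median -0.28), beside 31.0% and 30.7% of all genes. Eif1 encodes the factor that guards the choice of start codon; its gene lies on chromosome 11 (100319885 to 100322096, plus strand). Eif1 was at 175.2, 182.5, 178.3 and 185.9 CPM unbound and at 349.7, 338.4 and 313.3 CPM bound. All bound libraries lay far above, by 0.89 ± 0.06 (SE, edgeR adjusted p = 5.2e-07), or 1.85-fold. Its paralog Eif1b, on chromosome 9 (120492232 to 120495330, plus strand), stood at 60.2, 53.6, 54.2 and 54.6 CPM unbound and at 93.4, 85.4 and 103.1 CPM bound. Here too the groups did not overlap (0.76 ± 0.08, adjusted p = 1.3e-05), and the ratio of Eif1b to Eif1 differed by -0.13 with overlapping libraries (exact p = 0.286). With the length offset Eif1 stood at 0.61 and Eif1b at 0.29 (edgeR adjusted p = 1.3e-05 and 0.015). Eif1 shares 19.2% of its 50-base words with 18 other genes. Its 3 pseudogene copies, counted by the same limit as for Eef1a1, held 41.9 ± 4.73 CPM bound and 17.6 ± 1.36 CPM unbound (SD, n = 3 and 4). Eif1ad, a gene for an eIF1A-like protein, was higher by 0.79 ± 0.12 (adjusted p = 0.00015).

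Eif5b and Eif5, whose proteins join the large subunit and trigger GTP hydrolysis on eIF2, were both lower. Eif5b, on chromosome 1 (37998010 to 38055579, plus strand), stood at 87.1, 93.0, 85.4 and 90.6 CPM unbound and at 43.6, 44.5 and 52.0 CPM bound. No bound library came near an unbound one; the difference was -0.93 ± 0.08 (SE, edgeR adjusted p = 2.7e-06), or 1.91-fold lower. Eif5 stood at 211.9 to 237.5 CPM unbound and 156.4 to 172.8 CPM bound (-0.45 ± 0.07, adjusted p = 0.0002), a call that was lost on library totals. With the length offset Eif5b stood at -0.5 and Eif5 at -0.18 (edgeR adjusted p = 0.00041 and 0.044). Eif1ax, one of the eIF1A genes, and Eif2a, which can bring initiator tRNA without GTP, were lower by smaller amounts, -0.32 (adjusted p = 0.0014) and -0.36 (adjusted p = 0.011). Both calls ended with the length offset (-0.16 and -0.13, adjusted p = 0.051 and 0.3) and on library totals (0.12 and 0.08), and that of Eif2a also with the UBS libraries alone (-0.26, adjusted p = 0.12). Eif1a did not pass, at -0.28 (adjusted p = 0.056), but did with DESeq2 (-0.31, adjusted p = 0.024), with RLE size factors (-0.31, adjusted p = 0.037), with the UBGS libraries alone (-0.35, adjusted p = 0.034) and without unbound replicate 1 (-0.33, adjusted p = 0.017). Eif2d was at -0.17 (adjusted p = 0.29), and at 0.13 and 0.26 with the length offset and on library totals, again without passing.

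The subunits of eIF2 differed among themselves. Eif2s2, the beta subunit, stood at 41.5 to 51.0 CPM unbound and 66.9 to 68.8 CPM bound, higher by 0.53 ± 0.09 (edgeR adjusted p = 0.00033). Eif2s1, the alpha subunit whose phosphorylation blocks initiation, was lower by 0.33 on the log2 scale (adjusted p = 0.021), and on library totals its difference was 0.10; it also failed the test under the length offset (-0.20), in the fit on the UBS libraries only (-0.25), and without bound replicate 2 or unbound replicate 4. The gamma subunit has one gene on each sex chromosome. The windows of the pair are chrX:94212622-94212721 (minus) for Eif2s3x and chrY:1010525-1010624 (plus) for Eif2s3y, of the same layout as above but with capitals for the longest run that both share, and they are shown because the pair is X- and Y-linked and the rest of the windows differs.
Eif2s3x: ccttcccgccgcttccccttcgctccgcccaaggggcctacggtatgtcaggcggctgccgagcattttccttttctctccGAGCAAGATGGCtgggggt
Eif2s3y: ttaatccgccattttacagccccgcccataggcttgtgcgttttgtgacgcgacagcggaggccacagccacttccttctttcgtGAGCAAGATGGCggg
The shared run is 12 bases long. Eif2s3y stood at 11.0, 10.8, 9.44 and 9.58 CPM unbound and at 6.93, 4.98 and 5.04 CPM bound, and Eif2s3x at 96.5 to 108.3 CPM unbound and 80.8 to 105.6 CPM bound. The Y-linked gene was lower without overlap (-0.85 ± 0.16, edgeR adjusted p = 0.00095), and the X-linked gene overlapped (-0.16, adjusted p = 0.16), though it passed without bound replicate 2 (-0.26, adjusted p = 0.025). Within a library Eif2s3y made up 5.33% ± 1.16 (SD, n = 3) of the pair in bound and 8.31% ± 0.784 (SD, n = 4) in unbound libraries (exact p = 0.0571). Eif2s3x shares 34.6% of its 50-base words with other genes, and Eif2s3y shares none. A pseudogene copy of Eif2s3x held 43.1 ± 4.65 CPM (SD, n = 3) bound and 53.3 ± 5.14 CPM (SD, n = 4) unbound. These percentages leave that copy out. Of the other Y-linked genes, Kdm5d and Uty were lower, by 1.58 and 1.17 on the log2 scale (adjusted p = 0.0003 and 0.00013), and Ddx3y stood at -0.29 (adjusted p = 0.059). Xist averaged 0.0356 CPM bound and 0.337 CPM unbound.

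eIF2B, the exchange factor that reloads eIF2 and the target of the integrated stress response, had 2 of 5 subunit genes higher and none lower (median 0.25). Over all genes 31.0% were higher and 30.7% lower. Eif2b2 stood at 17.4 to 20 CPM unbound and 23.1 to 23.6 CPM bound (0.28 ± 0.09, edgeR adjusted p = 0.023), but was at -0.02 with a length offset and lost its call without unbound replicate 4. Eif2b4, at 0.46 (adjusted p = 0.028), had overlapping groups and lost its call without bound replicate 2 or 3 or without unbound replicate 2, 3 or 4. Both calls were also lost with the UBS libraries alone, and that of Eif2b4 with the UBGS libraries alone. None of the 5 genes passed with the length offset, beside 59.0% of all genes. On library totals 4 of the 5 were higher and none lower (median 0.68), beside 47.5% and 18.9% of all genes. On the TMM scale Eif2b1, Eif2b3 and Eif2b5 were at 0.25, -0.05 and -0.12 without passing, though Eif2b1 passed without unbound replicate 2 (0.33, edgeR adjusted p = 0.027). Of the 4 kinases that phosphorylate eIF2, which sense different stresses, 1 was called, beside 61.7% of all genes. Eif2ak2, the kinase activated by double-stranded RNA, was at 3.38, 3.06, 4.58 and 4.45 CPM unbound and at 0.788, 0.721 and 3.40 CPM bound. Bound replicate 3 lay inside the unbound range, and the call (-1.26 ± 0.50, adjusted p = 0.046) was lost in 12 of the alternatives, among them without bound replicate 1 or 2 and without unbound replicate 1, 2, 3 or 4. Eif2ak1, the heme-regulated kinase and the most abundant of the 4 per kilobase, stood at 0.09 (adjusted p = 0.48), and Eif2ak3 and Eif2ak4, the kinases of the unfolded protein response and of amino acid shortage, at 0.13 and -0.20 (adjusted p = 0.48 and 0.21). Without bound replicate 3, Eif2ak4 passed at -0.33 (adjusted p = 0.049). With the length offset Eif2ak1 passed as higher (0.29, edgeR adjusted p = 0.04), the only kinase gene called there. On library totals Eif2ak1 (0.52, adjusted p = 0.0009) and Eif2ak3 (0.58, adjusted p = 0.0099) passed as higher.

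eIF3 is the largest initiation factor, a scaffold on the small subunit. Of its 14 genes 4 were higher and 1 lower, with a median of 0.06, and 10 had overlapping groups. Over all genes 31.0% were higher, 30.7% lower, and 63.3% had groups that did not overlap. The median size of a difference among the eIF3 genes was 0.09. On library totals 12 of the 14 were higher and none lower (median 0.49), beside 47.5% and 18.9% of all genes. Eif3i stood at 67.0, 64.3, 69.0 and 65.3 CPM unbound and at 104.4, 100.3 and 111.7 CPM bound. The groups were far apart (0.67 ± 0.07, edgeR adjusted p = 8.3e-06). Eif3g, which with Eif3i and Eif3b belongs to the peripheral module of the complex, was at 36.1 to 49.6 CPM unbound and 54.0 to 62.9 CPM bound (0.44, adjusted p = 0.0074; 0.15 and 0.28 with the length offset), and Eif3b was at 0.11 (adjusted p = 0.36). Eif3k, a peripheral subunit, was at 34.6 to 43.6 CPM unbound and 54.8 to 65.1 CPM bound (0.56, adjusted p = 0.00061). Eif3a, the subunit around which the others assemble, was lower, from 89.5 to 108.3 CPM unbound to 68.8 to 76.0 CPM bound (-0.43, adjusted p = 0.0012), and it stood at -0.05 with the length offset (adjusted p = 0.59) and at 0.01 on library totals (adjusted p = 0.97). Its core partner Eif3c was at 0.04 (adjusted p = 0.65).

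Eif3d, whose protein can bind the cap, was called at 0.38 (edgeR adjusted p = 0.037), but the groups overlapped. Its exons overlap those of Gm17638 over 43.3% of their length. The call was lost without bound replicate 1 or 3 or without unbound replicate 2, 3 or 4. It was also lost with RLE size factors and with the UBS or UBGS libraries alone. Eif3e was at 29.1, 62.0, 62.7 and 66.8 CPM unbound and at 41.3, 36.4 and 33.9 CPM bound. Unbound replicate 1 lay below every bound library, apart from its group. The difference was -0.57 ± 0.23 (adjusted p = 0.054) with it and -0.76 (adjusted p = 8.7e-05) without it. Eif3j1 and Eif3j2, near-identical copies in sequence (91.8% of the 50-base words of Eif3j2 are shared), cannot be counted apart with certainty; they stood at 0.07 and 0.04. The remaining subunits Eif3f, Eif3h, Eif3l and Eif3m lay between -0.05 and 0.07; with the length offset Eif3h passed at -0.38 (adjusted p = 0.0055).

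**Figure D3:**
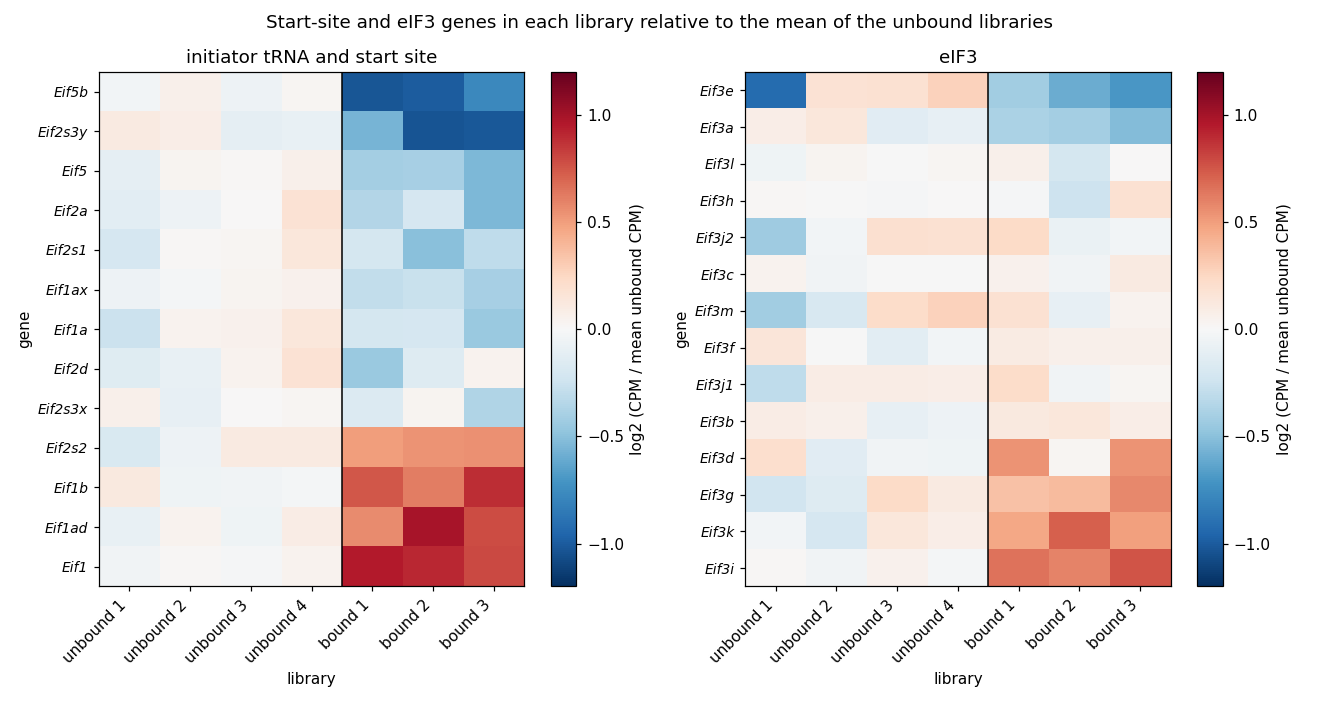
Heat maps of the 13 start-site genes (left) and the 14 eIF3 genes (right); each row is a gene, each column a library, and the colour is the log2 of its CPM over the mean of the 4 unbound libraries. Eif1 and Eif3i are red and Eif5b blue in all 3 bound libraries, and Eif3e in unbound replicate 1, at 29.1 CPM, is bluer than in any bound library.

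Most genes of the cap-binding eIF4 group were close to equal on the TMM scale, and this depended on the setting. Of 15 genes, 1 was higher and 2 lower (median -0.03), while with the length offset 11 were called, 7 higher and 4 lower (median 0.14), and on library totals 12, 11 higher and 1 lower. The 7 were Eif4g1 (0.54), Eif4e2 (0.51), Eif4e (0.44), Eif4g3 (0.44), Eif4g2 (0.34), Eif4h (0.34) and Eif4a2 (0.26), and the 4 were Eif4e3 (-0.42), Eif4a3 (-0.30), Eif4b and Eif4ebp3. Over all genes 61.7% were called on the TMM scale, 59.0% with the length offset and 66.4% on library totals. On the TMM scale the median size of a difference in the eIF4 group was 0.16, beside 0.28 over all 66 genes and 0.71 over all genes tested. Eif4e, the cap-binding protein, stood at 87.3 to 94.4 CPM unbound and 96.3 to 113.1 CPM bound (0.22 ± 0.07, edgeR adjusted p = 0.023). That small call was lost with the UBS or UBGS libraries alone, without bound replicate 1 or 2, or without unbound replicate 2 or 3. Eif4e2, which competes for the cap and represses, was at 0.19 (adjusted p = 0.18), and Eif4e3 at -0.22 (adjusted p = 0.09). Eif4e2 passed without unbound replicate 1 (0.29, edgeR adjusted p = 0.048) and with the UBGS libraries alone (0.36, edgeR adjusted p = 0.033). Eif4e3 passed with DESeq2 (-0.25, adjusted p = 0.0498). The scaffold genes Eif4g1, Eif4g3 and Eif4g2 stood at 0.24, -0.07 and -0.12 (adjusted p = 0.0504, 0.36 and 0.16). Eif4g1 passed without bound replicate 2 (0.34, adjusted p = 0.0051) or unbound replicate 1 (0.27, adjusted p = 0.044). It also passed without the mitochondria-encoded genes and Gm42418 (0.25, edgeR adjusted p = 0.037) and with no filter (0.24, edgeR adjusted p = 0.049). The helicase genes Eif4a1 and Eif4a2 were at 0.07 and 0.10, and Eif4a3, a core of the exon junction complex, at -0.03, none past the threshold there; with the length offset Eif4a2 and Eif4a3 passed in opposite directions (adjusted p = 0.012 and 0.013).

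Eif4b, the helper of the eIF4A helicase, was the clearest fall here: 168.2, 158.0, 153.9 and 151.4 CPM unbound against 116.1, 102.6 and 95.9 CPM bound. No library crossed over, and the difference was -0.59 ± 0.08 (SE, edgeR adjusted p = 7.2e-05), though on library totals the call was lost. Its relative Eif4h, which acts on the same helicase, was at 0.16 (adjusted p = 0.11), and passed with the UBS libraries alone (0.26, adjusted p = 0.037) or without unbound replicate 4 (0.22, adjusted p = 0.042). Of the 4E-binding proteins, which block eIF4E until mTORC1 phosphorylates them, Eif4ebp2, the main form in brain, stood at 31.9 to 40.0 CPM unbound and 31.4 to 33.7 CPM bound (-0.12, adjusted p = 0.3). Eif4ebp1 was scarce, at 0.421 to 0.963 and 0.548 to 1.04 CPM. Eif4ebp3 had the largest fall of the 66 genes, from 2.06, 1.01, 1.46 and 1.63 CPM to 0.411, 0.128 and 0.499 CPM (-2.16 ± 0.51, adjusted p = 0.0036). Its exons overlap AC115631.1 over 67.3% of their length, so the reads of the 2 genes may not be told apart. The eIF4E transporter gene Eif4enif1 was at -0.11 (adjusted p = 0.28; -0.21 and 0.045 without bound replicate 2).

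eIF5A helps the ribosome through difficult peptide bonds, and eIF6 keeps the large subunit from joining too early. Eif5a, on chromosome 11 (69916714 to 69921958, minus strand), stood at 156.6, 153.1, 167.8 and 175.0 CPM unbound and at 242.7, 257.1 and 242.4 CPM bound. All bound libraries were higher (0.60 ± 0.07, edgeR adjusted p = 1.9e-05). Its paralog Eif5a2 was lower, at 63.8, 69.8, 89.3 and 90.7 CPM unbound and 55.5, 62.6 and 55.4 CPM bound (-0.44 ± 0.13, adjusted p = 0.01). The UBS libraries lay nearer the bound level than the UBGS libraries, and with the UBS libraries alone the difference was -0.21 (adjusted p = 0.15). With the length offset it was -0.30 (adjusted p = 0.061), and on library totals -0.01 (adjusted p = 0.98). Within a library Eif5a2 made up 9.95% ± 0.326 (SD, n = 3) of the pair in bound and 18.4% ± 1.83 (SD, n = 4) in unbound libraries, 2.04-fold lower as a ratio and without overlap (exact p = 0.0571). The ratio was not corrected for the trend with exon length, at 5027 bases for Eif5a2 and 2377 bases for Eif5a. With the length offset Eif5a stood at 0.38 and Eif5a2 at -0.30. Eif6 stood at 16.2 to 20.8 CPM unbound and 24.2 to 27.3 CPM bound (0.48 ± 0.12, adjusted p = 0.0044). Of the 4 genes for methyltransferases that modify eEF1A or eEF2, Eef1akmt1 (0.70, adjusted p = 0.0021) and Eef2kmt (0.37, adjusted p = 0.046) were higher, beside 31.0% of all genes. With the length offset they stood at 0.21 and 0.20 (adjusted p = 0.22 and 0.27). Eef2kmt also lost its call with DESeq2, with RLE size factors, with no filter, and with the UBS or UBGS libraries alone. It was lost as well without bound replicate 1 or 2 or without unbound replicate 2, 3 or 4. Eef1akmt2 and Eef1akmt3 were at 0.19 and -0.55 without passing.

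Over the 10 pairs of paralogs, 6 had log2 ratios that did not overlap between the groups, each at the smallest p the design allows (exact two-sided p = 0.0571, adjusted 0.0952). The levels of single genes did not overlap for 63.3% of all genes, and the ratios of other gene pairs were not counted. The pairs were chosen with earlier results of these data known. Beside the eEF1A, eIF5A and eIF2 gamma pairs, the pairs without overlap were Eif4e3 to Eif4e, with a difference of -0.45, Eif4g2 to Eif4g1, with -0.34, and Eif4g3 to Eif4g1, with -0.30. No ratio was corrected for the trend with exon length. With the length offset Eif4g1, Eif4g2 and Eif4g3 stood at 0.54, 0.34 and 0.44, and Eif4e and Eif4e3 at 0.44 and -0.42. The ratios of Eif4a2 to Eif4a1 (0.03, exact p = 0.743), Eif4e2 to Eif4e (-0.02, exact p = 1.0) and Eif4ebp1 to Eif4ebp2 (0.35, exact p = 0.4) overlapped. In the helicase pair Eif4a2 made up 69.0% ± 1.25 (SD, n = 3) bound and 68.6% ± 1.34 (SD, n = 4) unbound.

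**Figure D4:**
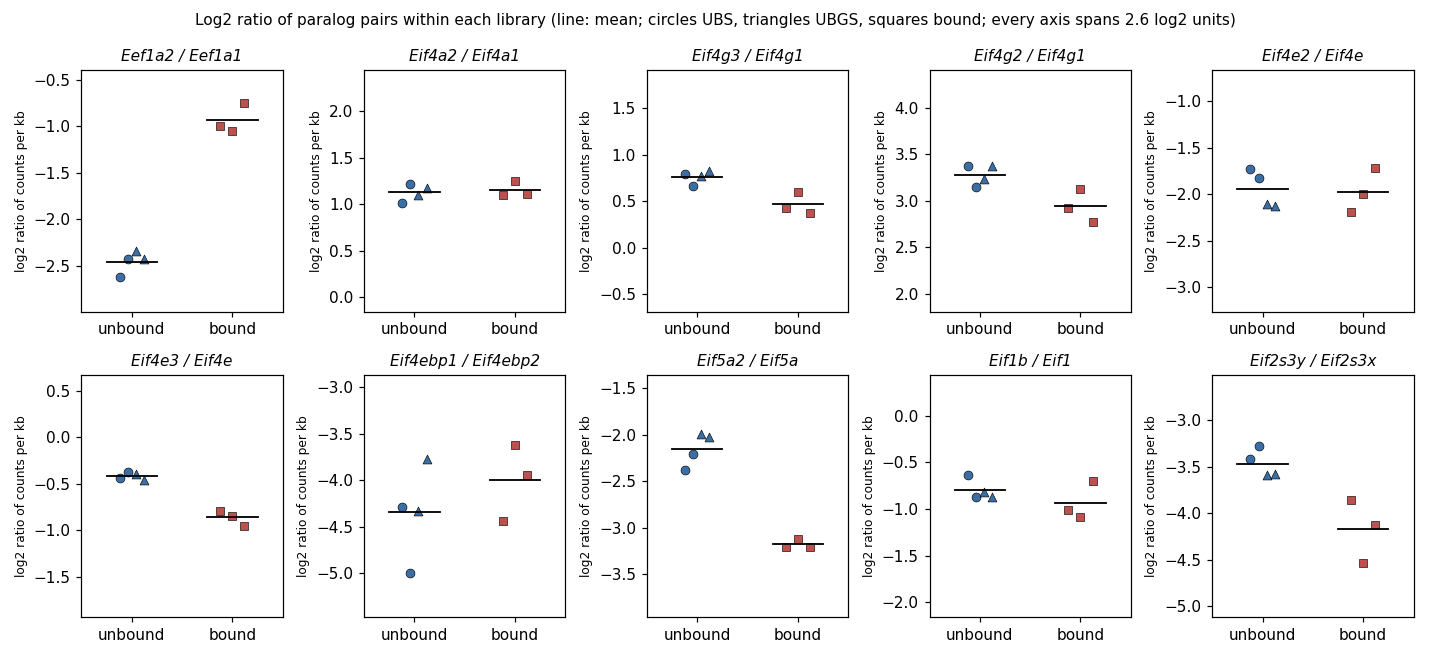
Log2 ratio of the per-kilobase counts of paralogs within each library (y axis, the same span in each panel) for 10 pairs; circles are UBS, triangles UBGS and squares bound libraries, and lines are means. The pair Eef1a2 to Eef1a1 shifts the most, from a mean of -2.45 to -0.93, and Eif4a2 to Eif4a1 overlaps.

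The most abundant factor mRNA differed between the fractions when levels were taken per kilobase, but not by CPM. By CPM Eif4g2 led in both, at 780.3 CPM bound and 846.8 CPM unbound. The length was that of all annotated exons of a gene merged, at 10166 bases for Eif4g2, 2493 for Eef1a1 and 2098 for Eif1. The order of genes per kilobase, and so the gene that leads, depends on these lengths. Per kilobase of exon, Eef1a1 was the most abundant in unbound libraries at 212.4 CPM per kilobase, followed by Eef2 at 88.8, Eif1 at 86.0 and Eif4g2 at 83.3. In bound libraries Eif1 led at 159.1 CPM per kilobase, followed by Eef1a1 at 137.8, Eif5a at 104.1 and Eef2 at 89.1. These levels leave out the pseudogene copies, which held 41.9 CPM for Eif1 and 68.2 CPM for Eef1a1 in bound libraries. Eef1a1 took 15.4% ± 0.655 (SD, n = 4) of the summed per-kilobase level of the 66 genes in unbound and 9.32% ± 0.381 (SD, n = 3) in bound libraries, and Eif1 took 6.22% ± 0.157 and 10.8% ± 0.582. The groups did not overlap for either share. As a share of all counts the 66 genes held 0.453, 0.485, 0.48 and 0.48% in unbound and 0.667, 0.642 and 0.608% in bound libraries. Mitochondria-encoded genes, at 28.5 to 32.9% of the unbound and 0.0867 to 0.123% of the bound counts, lower the unbound shares. These shares therefore do not show that the factor genes took more of the remaining RNA in bound libraries.

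Exon length moved with the difference, in factor genes as in other genes. The 14 factor genes with under 2500 bases of exon had a median of 0.25, with 7 higher and 2 lower, and the 26 with 5000 bases or more had a median of -0.12, with 2 higher and 8 lower. Protein-coding genes of those lengths had medians of 0.52 and -0.33, so the factor genes' medians had the same order over a narrower range. Calls by length were not counted for all genes, of which 31.0% were higher and 30.7% lower. Spearman's rho of difference and length was -0.35 across the 66 genes and -0.31 across 15100 protein-coding genes, which share the same libraries. With an offset for the length trend in each library, 31 factor genes were again called, 20 higher and 11 lower, beside 59.0% of all genes, and 19 of the 31 calls remained. Eef1a1, at 2493 bases, is short and was lower, while Eef1a2, at 2084 bases, is short and was higher. With the length offset they stood at -0.83 and 0.62.

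**Figure D5:**
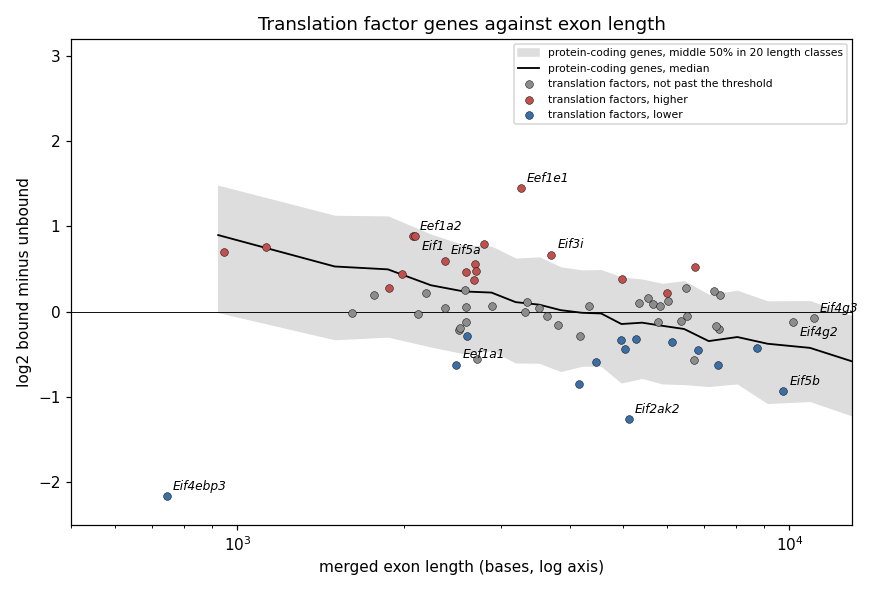
Difference between bound and unbound libraries (log2, y axis) against merged exon length (bases, log axis) for the 66 factor genes, coloured by call; the line and grey band are the median and the middle 50% of protein-coding genes in 20 length classes. Eef1e1 at 1.45 lies above the band and Eef1a1 at -0.62 below it; Eif4ebp3 lies left of where the band starts.

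Other genes of the pathway were taken from 7 lists, of which 78 genes were tested; 25 were higher and 19 lower, 56.4% in all, near the 61.7% called over all genes (31.0% higher, 30.7% lower), beside which the counts of each list are to be read. Among 8 genes of termination, recycling and reinitiation, 3 were higher and 3 lower (median 0.01). The largest rise was Mcts1, which with Denr releases leftover tRNA, at 25.4 ± 3.79 against 9.35 ± 0.398 CPM (SD, n = 3 and 4; 1.44, edgeR adjusted p = 1.7e-06), and Denr rose too (0.70, adjusted p = 0.00033). The largest fall was Gspt1, the release factor eRF3 (-0.36, adjusted p = 0.022). Of 18 partners and regulators of the cap complex, 2 were higher and 8 lower (median -0.17). Pabpc1, the cytoplasmic poly(A)-binding protein that bridges to eIF4G, was at 47.6 ± 3.71 CPM bound and 194.6 ± 12 CPM unbound (-2.03 ± 0.08, adjusted p = 9.9e-09), while its inhibitor Paip2 was higher (0.90, adjusted p = 4e-06). Fmr1 and Cyfip2, of the fragile X protein and its partner, were lower (-0.84 and -0.80, adjusted p = 2.5e-05 and 1e-06).

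Of 15 genes of mTORC1 and MNK signalling, 3 were higher and 5 lower (median -0.09). The kinase genes Mtor and Rps6kb1 were lower (-0.55 and -0.62, edgeR adjusted p = 0.00043 and 2.4e-05), and Rheb, the GTPase that switches mTORC1 on, was higher (0.61, adjusted p = 4.1e-05). The 2 extremes were S6 kinases of the RSK family, Rps6ka1 at 1.38 and Rps6ka3 at -1.31 (adjusted p = 7.3e-05 and 9.6e-06). Of the 9 tested genes of the integrated stress response, 4 were higher and none lower (median 0.44). Atf4, the transcription factor made when eIF2 is phosphorylated, stood at 86.6, 65.5, 61.0 and 62.8 CPM unbound and 137.1, 137.7 and 151.8 CPM bound (1.04 ± 0.12, adjusted p = 1.5e-05), and Atf5 (1.15), Ddit3 (0.77) and Impact (0.44) rose with it. The mRNA of Atf4 is a level here and says nothing on the phosphorylation of eIF2.

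Among 9 enzymes that modify eIF5A or eEF2, 2 were higher and 1 lower (median 0.22). Both that rose make the hypusine residue of eIF5A: Dhps (0.89, edgeR adjusted p = 2e-05) and Dohh (0.99, adjusted p = 5.5e-05), beside the rise of Eif5a itself. The fall was Dph6 (-0.61, adjusted p = 0.00082), the last enzyme of the diphthamide on eEF2. Of 9 mitochondrial translation factors 5 were higher and 1 lower (median 0.50), led by Tsfm and Tufm (0.69 and 0.68), with Mtif2 lower (-0.28). Of 10 other genes with a pyrimidine-run start, 6 were higher and 1 lower (median 0.39), from Fau, a ribosomal protein gene, at 1.22 to Vim, an intermediate filament gene of glia and vessels, at -0.82. Eef1a1, Eef1g and Eif4b, known members of that class, were lower, Eef2 was at 0.00 and Eef1b2 at -0.19, so this class held genes of both directions.

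Inside the unbound group, the 2 title series were compared, since a difference there widens the spread of the main comparison. None of the 66 genes passed edgeR's test between UBS and UBGS (smallest adjusted p = 0.11), where 0.229% of all genes did. At an unadjusted p under 0.05 there were 17 (25.8%), 5 higher and 12 lower in UBS, beside 16.8% of all genes. DESeq2 called 2, Eif3m (-0.55, adjusted p = 0.0084) and Eif5a2 (-0.43, adjusted p = 0.0084), where it called 1.56% of all genes. Eif3m, an eIF3 subunit, was at 24.5 and 28.7 CPM in UBS and at 38.2 and 39.7 CPM in UBGS libraries. Without unbound replicate 1 or 2, edgeR called 16 and 33 of the 66, beside 23.5% and 36.9% of all genes, with the lone UBS library assumed to vary like the others, and without unbound replicate 3 or 4 it called none.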

How the data were processed

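Per the labels, RNA of 3 bound and 4 unbound TRAP libraries of mouse hippocampus was sequenced. The deposited values are raw read counts per Ensembl gene ID; the submitters' processing notes name STAR 2.5.3a, HTSeq and mm10, while the sources used here do not give the annotation, the strand setting or the handling of reads with several matches. Symbols, exons and biotypes came from GENCODE M21 (GRCm38) and start regions from RefSeq (GRCm38.p6).

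Counts were tested over all genes with edgeR 4.0.16 (filterByExpr, TMM, glmQLFit with robust dispersions, glmQLFTest) in R 4.3.3, bound against unbound with no covariates, Benjamini-Hochberg over the 19563 genes tested and a threshold of 0.05. The script was tested on simulated counts. CPM use TMM-scaled totals. Paralog ratios were compared by exact permutation (SciPy 1.17.1). Exon words of 50 bases shared with other genes were counted in the annotation. Alternatives were DESeq2 1.42.0, other scalings, no filter, an offset for exon length (lowess span 0.3, prior count 2), a minimum of 1.5-fold, either unbound title series alone and each library left out.

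The members, lists and pairs were chosen with earlier results of these data known. Genes named with values are the pairs, Eef2, Eef2k, the eEF1B subunits, the eIF2 kinases, Eif2s1, Eif6, the extremes and the most even gene of each role, and the 8 largest rises and 8 largest falls; the other members were named to account for all of them, and of each pathway list the largest rise and fall. Denr, Fmr1, Cyfip2, Mtor, Rps6kb1, Rheb, Atf4, Ddit3, Impact, Dhps and Tufm were chosen after their values were seen. No 2 libraries of a group agreed within sampling noise (lowest chi-square per degree of freedom 5.57). The RefSeq table had entries for 51 of the 66 genes.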

Additional observations from a re-analysis of the deposited data

Results flagged for a closer look

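In the unbound group of 4 libraries, 76 sets of values (66 genes and 10 paralog ratios) were searched for a library far from the other 3, by Dixon's test, which chance passes in about 1 in 20. It marked 4, all in unbound replicate 1. Eif3e stood at 29.1 CPM there against 62.0 to 66.8 CPM, with a gap of 0.87 of the range, and Eif3j1 at 41.9 against 54.9 to 55.2 CPM, with 0.98. Eif1b was at 60.2 against 53.6 to 54.6 CPM, with 0.86, and Eif2ak3, which lies close together in all 4 libraries, at 8.99 against 8.27 to 8.32 CPM, with 0.92. Without that library 29 of the 31 calls remained; Eif2ak2 and Eef2k lost theirs.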

How the results depend on the processing

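Scaling turned the most signs. On library totals 46 of 66 genes were called, 43 higher and 3 lower, with a median of 0.47, beside 47.5% and 18.9% of all genes. Of the 66 genes 20 then changed sign, 15 of them past the threshold on either scale: Eef1b2 (0.24), Eef1g (0.16), Eif1ax (0.12), Eif2a (0.08), Eif2b5 (0.31), Eif2s1 (0.10), Eif2s3x (0.28), Eif3a (0.01), Eif3h (0.41), Eif3l (0.39), Eif4a3 (0.40), Eif4ebp2 (0.31), Eif4enif1 (0.32), Eif4g2 (0.32) and Eif4g3 (0.36). With the length offset 14 changed sign, 3 of them with such a call, Eif2b2 (-0.02), Eif4g2 (0.34) and Eif4g3 (0.44). Library totals kept 20 of the 31 calls and the length offset 19. Against a minimum of 1.5-fold 7 genes passed, 5 higher and 2 lower, where 35% of all genes did. Of the 31 calls, 17 (10 higher, 7 lower) were kept in every alternative other than library totals and the 1.5-fold minimum, and 13 (10 higher, 3 lower) also on library totals, the 3 being Eif5b, Eef1a1 and Eif4ebp3. The counts without 1 library ran from 26 to 33. The ratio of Eif4a2 to Eif4a1 ranged from -0.02 to 0.06 without 1 library, below 0 without bound replicate 2 (-0.02) or unbound replicate 1 (-0.01). That of Eif4e2 to Eif4e was 0.15 with UBGS alone and ranged from -0.15 to 0.09 without 1 library, above 0 without bound replicate 1 (0.09), unbound replicate 1 (0.05) or unbound replicate 2 (0.02). Between UBS and UBGS, DESeq2 called 2, and leaving out a library gave 0 to 33. No paired analysis was possible because the bound and unbound titles share no replicate number that the labels tie to common tissue. The cause of each change was not tested.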
